A study of Mus musculus with 6 samples.

Results

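The peaks of H3K4 trimethylation (H3K4me3) at Ebf1 and Pax5 were compared between a pro-T and a pre-B cell line of the mouse. For each gene, every peak from 200 kb before its start to 200 kb after its end was taken. In the pre-B line 230-238, 17 peaks lay in the Ebf1 region and 10 in the Pax5 region, of 19604 peaks in all. In the pro-T line Scid.adh.2C2 the regions held 2 peaks and 1 peak, of 15513. None of these 3 overlapped either gene.

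Scid.adh.2C2 stands for pro-T cells. It was subcloned from Scid.adh, a tumour line of the thymus of CB17-Prkdc scid mice, which lack V(D)J joining, and resembles thymocytes of the DN3 stage. 230-238 is a B cell progenitor line transformed with the Abelson virus. Each line is thus a single tumour or transformed line, both were grown in culture without a treatment, and each gave 2 ChIP libraries with the same antibody to H3K4me3 and 1 input library. The replicates of a line were combined by the authors into 1 peak list, which leaves the depth and the variation between replicates unknown and allows no test between the lines. A promoter without a peak is one where no peak passed the authors' thresholds. Fold enrichment, the authors' ratio of ChIP signal to background at the summit of a peak, was read only within a list.

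EBF1 and PAX5 are the transcription factors that specify the B cell lineage and hold cells in it. EBF1 belongs to the early B cell factor family and acts in lymphoid progenitors together with E2A and FOXO1, and PAX5, a paired-domain factor whose gene is a target of EBF1, activates B cell genes, feeds back on Ebf1 and represses genes of other lineages. Both genes are known to use more than 1 promoter. H3K4me3 is a histone mark found around the starts of active genes, where it often spreads into a wider domain at genes that define a cell type, and weaker peaks of it also occur at active enhancers.

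Ebf1 (ENSMUSG00000057098) lies on the plus strand at chr11:44617317-45008091 of GRCm38 and Pax5 (ENSMUSG00000014030) on the minus strand at chr4:44524757-44710487. The sequences below show the DNA at the main peaks. These are the highest Ebf1 peak, the annotated starts, and in each gene the highest intron peak that touches no exon. They were read from GRCm38 5′ to 3′ in the direction of transcription of the gene. Capitals mark matches, on either strand, to CCCNNGGG (the core bound by EBF1), CAGNTG (an E-box), GGAAGT (a core bound by ETS factors), GTAAACA (bound by FOXO factors), TTCNNNGAA (bound by STAT factors) or TATAAA. The 200 bases around the summit of the highest Ebf1 peak lie upstream of the gene at chr11:44612308-44612507, outside every exon of Ebf1.
Ebf1 upstream peak: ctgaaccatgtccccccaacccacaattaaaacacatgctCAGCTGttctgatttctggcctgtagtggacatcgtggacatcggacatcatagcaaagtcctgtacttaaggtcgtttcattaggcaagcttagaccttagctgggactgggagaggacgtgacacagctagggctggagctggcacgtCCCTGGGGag
The 250 bases before the first annotated start of Ebf1 are at chr11:44617067-44617316.
Ebf1 first start: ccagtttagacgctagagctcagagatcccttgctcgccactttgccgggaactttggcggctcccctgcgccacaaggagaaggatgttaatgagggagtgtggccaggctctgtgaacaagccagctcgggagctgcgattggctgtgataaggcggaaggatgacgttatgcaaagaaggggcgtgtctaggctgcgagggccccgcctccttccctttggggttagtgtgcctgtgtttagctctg
The highest of the Ebf1 intron peaks that touch no exon has its summit in intron 7, at the centre of chr11:44880983-44881182.
Ebf1 intron peak: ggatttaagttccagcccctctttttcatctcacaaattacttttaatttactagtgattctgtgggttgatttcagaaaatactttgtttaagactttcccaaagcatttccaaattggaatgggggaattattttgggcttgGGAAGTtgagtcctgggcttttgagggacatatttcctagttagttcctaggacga
The 250 bases before the first start of Pax5 as RefSeq places it are at chr4:44710695-44710944, on the minus strand.
Pax5 first start: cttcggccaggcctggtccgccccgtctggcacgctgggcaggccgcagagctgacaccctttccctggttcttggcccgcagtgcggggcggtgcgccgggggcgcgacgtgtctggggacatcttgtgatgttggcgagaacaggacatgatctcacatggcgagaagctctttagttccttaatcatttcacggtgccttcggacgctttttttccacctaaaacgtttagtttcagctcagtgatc
The 250 bases before the second annotated start of Pax5 are at chr4:44704007-44704256, on the minus strand and inside intron 1.
Pax5 second start: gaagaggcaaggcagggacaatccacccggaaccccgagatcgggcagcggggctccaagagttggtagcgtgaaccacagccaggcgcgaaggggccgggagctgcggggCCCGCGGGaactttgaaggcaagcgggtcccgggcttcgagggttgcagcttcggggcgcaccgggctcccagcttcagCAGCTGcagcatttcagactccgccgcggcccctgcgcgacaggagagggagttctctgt
The higher of the intron 5 peaks of Pax5 has its summit at the centre of chr4:44674850-44675049, on the minus strand.
Pax5 intron peak: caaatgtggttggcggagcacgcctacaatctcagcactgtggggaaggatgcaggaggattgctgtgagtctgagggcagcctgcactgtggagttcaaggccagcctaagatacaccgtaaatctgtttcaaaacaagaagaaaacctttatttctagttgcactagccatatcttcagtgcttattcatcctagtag

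The upstream peak of Ebf1 and the second start of Pax5 each held 1 match to CCCNNGGG and 1 to CAGNTG, which did not overlap. The first CCCNNGGG base stood at position 191 of the Ebf1 window and at position 112 of the Pax5 window, counted from 1 at the 5′ end. Of all 200-base windows at 230-238 summits 9.96% held CCCNNGGG and 42.7% held CAGNTG. The shares were 13.7% and 43.1% among the 250 bases before the most upstream start of 21931 protein-coding genes. G and C made up 68.0% of the Pax5 window, against a median of 54.0% before these starts. In the Ebf1 window they made up 52.5%, against a median of 51.5% at summits. Shares among windows of like base content were not computed. The Ebf1 intron peak held GGAAGT at position 145, as 11.8% of the summit windows did. The first starts of both genes and the Pax5 intron peak held none of the 6 motifs. These matches describe the letters of the windows only, and binding was not measured here.

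Ebf1 carried its highest H3K4me3 in 230-238 in 3 neighbouring peaks at its start. The peak over the first annotated start, at chr11:44615617-44618670, was 26.1-fold enriched and 3054 bp wide, with a summit at -0.5 kb from that start, above 90.0% of the list in fold enrichment. The next peak, chr11:44618972-44625428, was 23.0-fold enriched and 6457 bp wide, which ranked 126 by width. It reached from intron 1 past the start of the short transcript Ebf1-205. The highest peak of the region was neither of these. It lay at chr11:44611031-44614689 with its summit at -4.9 kb, was 30.7-fold enriched (rank 409 of 19604) and 3659 bp wide, and held no annotated start of Ebf1, neither in GENCODE nor in RefSeq. Whether it covers the distal promoter known for Ebf1 could not be decided from the annotation, and it is not counted among the start regions of the gene. The only annotated gene under it was Gm37695, an unconfirmed transcript on the opposite strand. Scid.adh.2C2 had no peak at any of these places.

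**Figure D1:**
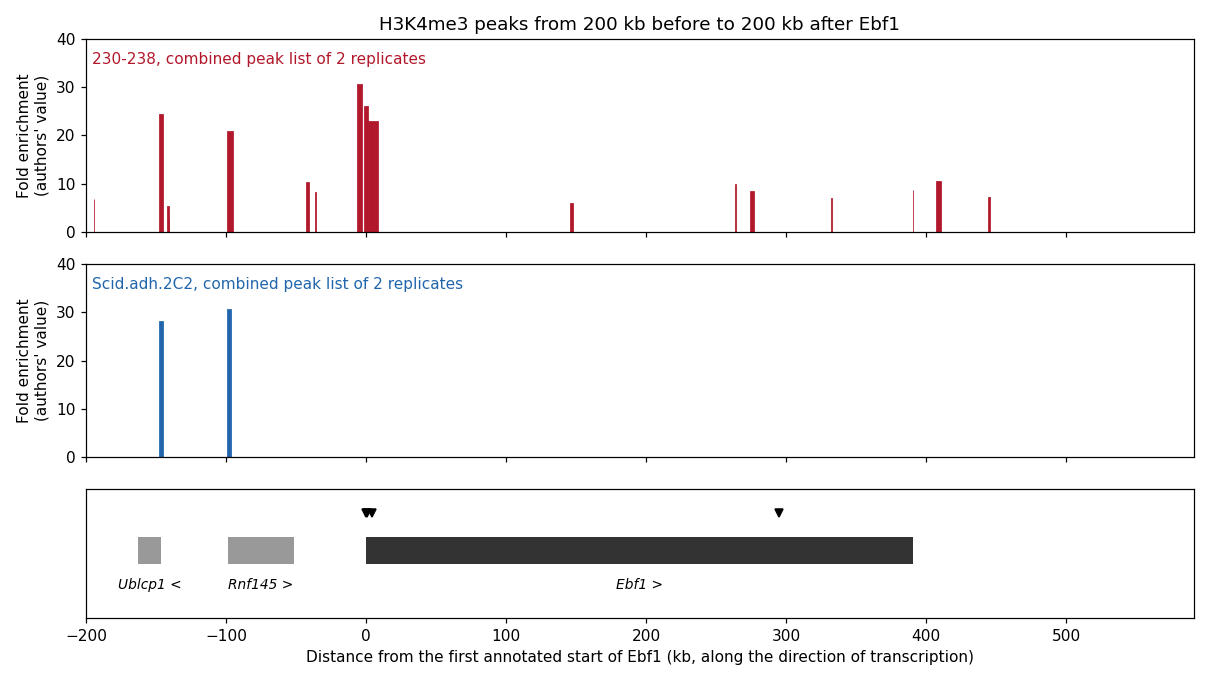
H3K4me3 peaks around Ebf1 in 230-238 (top) and Scid.adh.2C2 (middle), with the protein-coding genes (bars, with > for the direction of Ebf1 and < for the opposite one) and the start regions of Ebf1 (triangles) at the bottom. The x axis is the distance from the first annotated start in kb, each box spans 1 peak, and its height is the authors' fold enrichment, from 1 combined list per line. 230-238 has 3 high peaks at the start and low peaks along the gene, and the 2 peaks of Scid.adh.2C2 lie at Ublcp1 and Rnf145.

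Starts that lay within 500 bp of each other were joined, which gave 4 start regions for the 7 annotated Ebf1 transcripts. In 230-238, 3 of the 4 were marked, that is, a peak overlapped the 2500 bp either side of the start, and in Scid.adh.2C2 0 of 4 were. Among all 21951 protein-coding genes 48.2% had a marked promoter in 230-238, 45.5% in Scid.adh.2C2 and 5.96% in 230-238 only. These shares count genes with any marked start, and a share over all start regions was not computed. The first start region, at 44617317, serves the 3 protein-coding transcripts and had 3900 of the 5001 bases of its window under peaks. The second, 0.8 kb further, had 4699, and the third, at 4.4 kb, had all 5001. Every one of these 3 starts lay inside a peak, as did the 5 RefSeq starts of Ebf1, which are spread from 783 bp to 2911 bp after the GENCODE start. The fourth, of transcript Ebf1-206 at 294.8 kb, had no peak in its window.

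Beyond the start, 4 low peaks lay in introns of Ebf1 and 1 in its last exon. The intron peaks were found in intron 6 at 146.4 kb (6.08-fold, 2227 bp), intron 7 at 263.8 kb (9.85-fold, 1271 bp), intron 8 at 276.3 kb (8.56-fold, 2834 bp) and intron 10 at 332.3 kb (7.03-fold, 759 bp). The peak in exon 16, the last exon, was 467 bp wide and 8.69-fold enriched. These 5 peaks fell in the lower part of the list, with between 3.70% and 25.6% of the 230-238 peaks below them in fold enrichment, whereas in width the intron 8 peak was above 83.6% of the list. The median over the 5815 peaks of 230-238 that lie outside every promoter window was 9.48-fold.

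Outside the gene, 230-238 had peaks on both sides. After the end of Ebf1 a peak of 3596 bp at 408.1 kb was 10.5-fold enriched and one of 1441 bp at 445.1 kb was 7.26-fold enriched, with no promoter window of a gene at either. Before the start, peaks stood at -36.0 kb (8.23-fold), -41.6 kb (10.4-fold) and -194.2 kb (6.90-fold), likewise away from any promoter. A pair of peaks near the pseudogene Gm12156 was lower still, at 5.46-fold and 2.72-fold. The remaining peaks covered the promoters of Rnf145, a ubiquitin ligase gene, and Ublcp1, a phosphatase gene that acts on the proteasome.

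Rnf145 and Ublcp1 were the places where both lines had a peak. The Rnf145 peak was 21.0-fold enriched and 4278 bp wide in 230-238 and 30.6-fold enriched and 2741 bp wide in Scid.adh.2C2, above 72.6% and 82.0% of the peaks of their own list in fold enrichment. The Ublcp1 peak had 24.5-fold and 28.2-fold enrichment, above 85.3% and 74.9% of the respective list. All other 15 of the 17 peaks of 230-238 had no overlapping peak in Scid.adh.2C2, against 39.3% of all 230-238 peaks. Of the 15 peaks 11 lay outside every promoter window, where 29.7% of all 230-238 peaks lie and 76.6% of these have no partner. The other 4 lay at promoter windows, where 23.6% of 230-238 peaks had no partner.

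Pax5 was marked from before its first start to beyond its second and the third start in 230-238. Again 3 peaks lay next to each other. The widest, at chr4:44704643-44710490, was 5848 bp wide (rank 214 of 19604) and 21.4-fold enriched, and its summit lay 965 bp after the first annotated start, inside intron 1. Upstream of the start a peak of 3295 bp at chr4:44710644-44713938 was 12.5-fold enriched. The peak over the second and the third start, at chr4:44701373-44704529, was 15.1-fold enriched and 3157 bp wide. Scid.adh.2C2 had no peak in Pax5.

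**Figure D2:**
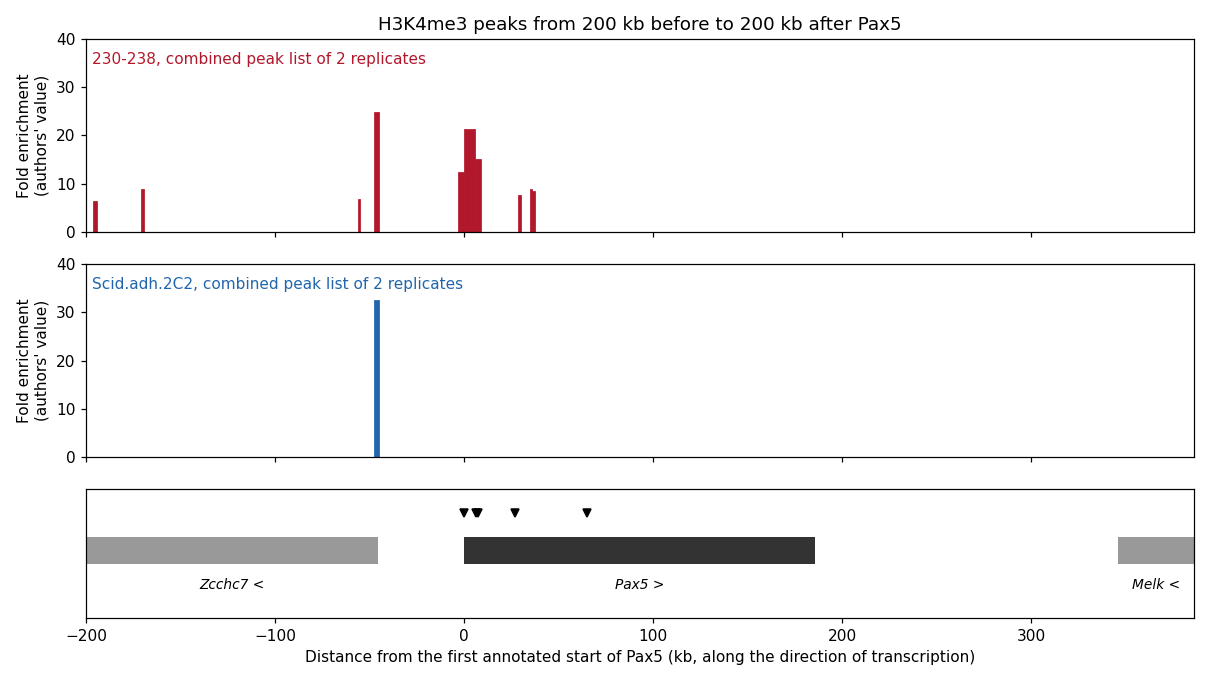
H3K4me3 peaks around Pax5, drawn as for Ebf1, with 230-238 at the top, Scid.adh.2C2 in the middle and genes and Pax5 start regions at the bottom. The x axis is the distance from the first annotated start in kb along the direction of transcription and the y axis the authors' fold enrichment. 230-238 has its peaks at the start, in introns 4 and 5 and upstream, where Zcchc7 lies, and none beyond 36.7 kb into Pax5, and the 1 peak of Scid.adh.2C2 is at the Zcchc7 promoter.

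The 20 annotated transcripts of Pax5 fell into 5 start regions, of which 4 were marked in 230-238 and 0 in Scid.adh.2C2. The regions are not separate observations, since neighbouring starts can lie under the same peak, as the second and the third do. The first serves 13 transcripts, and 4848 of the 5001 bases of its window lay under peaks. A gap of 153 bp, from 44710491 to 44710643, separated the peaks there, with the GENCODE start at 44710487 on one side of it and the RefSeq start at 44710694 inside the 12.5-fold peak on the other. The second start, at 6.5 kb, and the third, at 7.1 kb, had 4888 and 4428 bases of their windows under peaks, and 5730488B01Rik, an unconfirmed transcript on the opposite strand, overlaps them both. The fourth, of transcript Pax5-211 at 26.7 kb, was marked by the edge of a peak that covered 512 bases of its window and did not reach the start itself. The last, of Pax5-220 at 64.8 kb, had no peak.

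Inside the gene, 3 low peaks lay in introns of Pax5. A peak of 1153 bp in intron 4, at 29.6 kb, was 7.59-fold enriched and is the one that touched the window of Pax5-211. In intron 5 stood a peak of 965 bp at 35.5 kb with 8.84-fold and a peak of 1673 bp at 36.7 kb with 8.56-fold enrichment. Intron 5 of Pax5 is known to hold a B cell enhancer, whose position was not compared with these peaks. The antisense transcript Gm12462 runs across all 3 peaks. From 36.7 kb to the end of the gene at 185.7 kb no further peak was listed in 230-238.

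Upstream of Pax5 lies Zcchc7, which codes for a protein of nuclear RNA surveillance and is transcribed away from Pax5. Its promoter, at -46.4 kb, was the only place of the region with a peak in both lines, 24.9-fold enriched in 230-238 and 32.5-fold in Scid.adh.2C2, above 86.7% and 87.3% of the peaks of the respective list. It was 2987 bp wide in 230-238 and 2843 bp in Scid.adh.2C2. Inside Zcchc7, 230-238 had 3 further peaks, at -55.4 kb (6.86-fold), -169.8 kb (8.88-fold) and -195.1 kb (6.48-fold), the last of which overlapped a promoter window of Zcchc7. In all, 9 of the 10 peaks of 230-238 had no partner in Scid.adh.2C2, against 39.3% of all 230-238 peaks. Outside promoter windows, where 76.6% of all 230-238 peaks have no partner, this was 4 of 4, and at promoter windows, where 23.6% have none, 5 of 6.

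**Figure D3:**
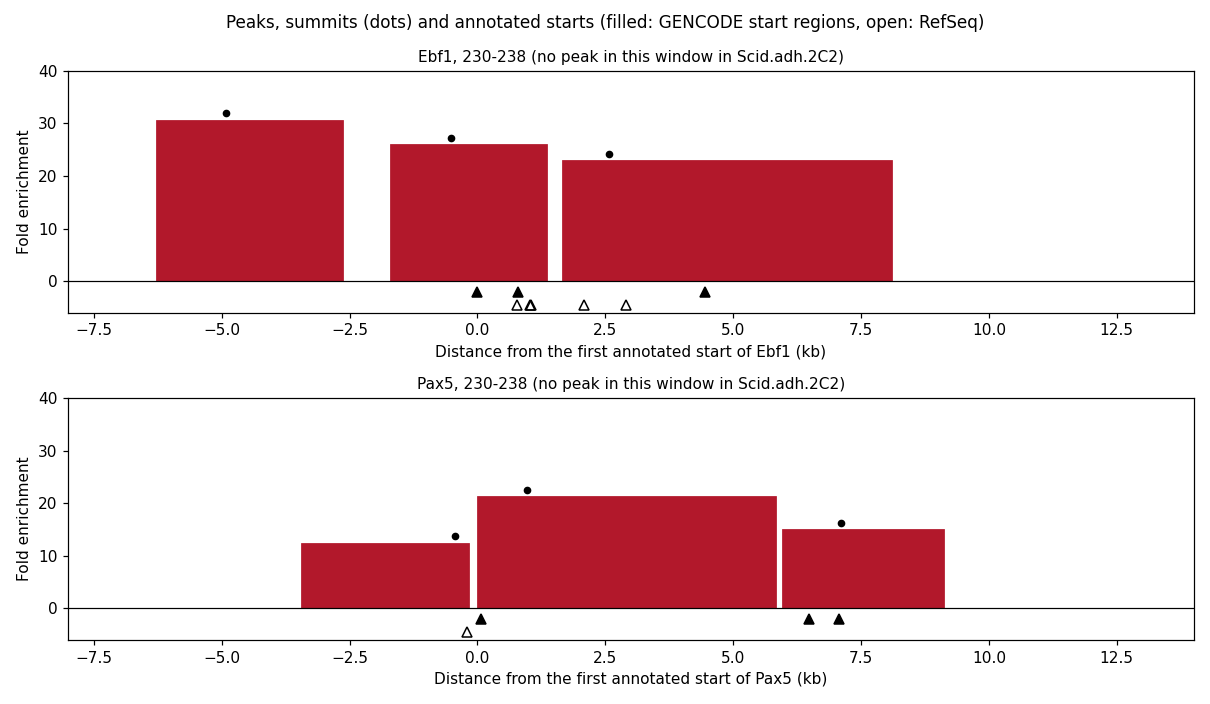
Peaks of 230-238 at the starts of Ebf1 (top) and Pax5 (bottom), with the distance from the first annotated start in kb on the x axis and the authors' fold enrichment on the y axis. Boxes span the peaks, dots stand above their summits, filled triangles are GENCODE start regions and open triangles RefSeq starts, and in both genes 3 peaks with gaps of 113 bp to 927 bp form 1 domain.

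Joined across gaps of up to 1000 bp, the peaks at the starts formed 1 domain per gene. The Ebf1 domain was 14398 bp wide, from -6.3 kb to 8.1 kb, and the Pax5 domain 12566 bp, from -3.5 kb to 9.1 kb. Among the 15759 domains of 230-238 they ranked 10 and 20 by width, with 0.0635% and 0.127% of the domains as wide or wider. The median domain was 2026 bp wide and the 99th percentile was 7970 bp. The Ebf1 domain depends on the joining rule, since the gap between its upstream peak and the next is 927 bp. Joined across 500 bp only, it was 9812 bp wide and ranked 46 of 16057, while Pax5 stayed at 12566 bp.

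By the measures used here, Ebf1 and Pax5 ranked higher by the length of DNA under H3K4me3 than by the height of their peaks. Peaks covered 15369 bp of Ebf1 (3.93% of 390775 bp) and 12793 bp of Pax5 (6.89% of 185731 bp), which ranked 36 and 63 of the 21951 protein-coding genes. Both genes are long, and among the 2492 protein-coding genes of at least 100 kb the ranks were 31 and 50. A set of 1074 protein-coding genes had a marked promoter in 230-238 and no peak in Scid.adh.2C2 within the gene and 2500 bp either side. In this set Ebf1 and Pax5 ranked 4 and 7 by covered length and 29 and 37 by their widest peak. By the fold enrichment of their highest peak they ranked 133 and 327. Widest and highest peaks were taken over the gene and 2500 bp either side. That leaves out the 30.7-fold peak upstream of Ebf1, so the fold rank of Ebf1 rests on a lower peak. Covered length was counted inside the gene only, and the 1074 genes were not limited by length, which favours long genes in that measure. These ranks describe 1 list, and how far they would move between replicates is unknown.

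**Figure D4:**
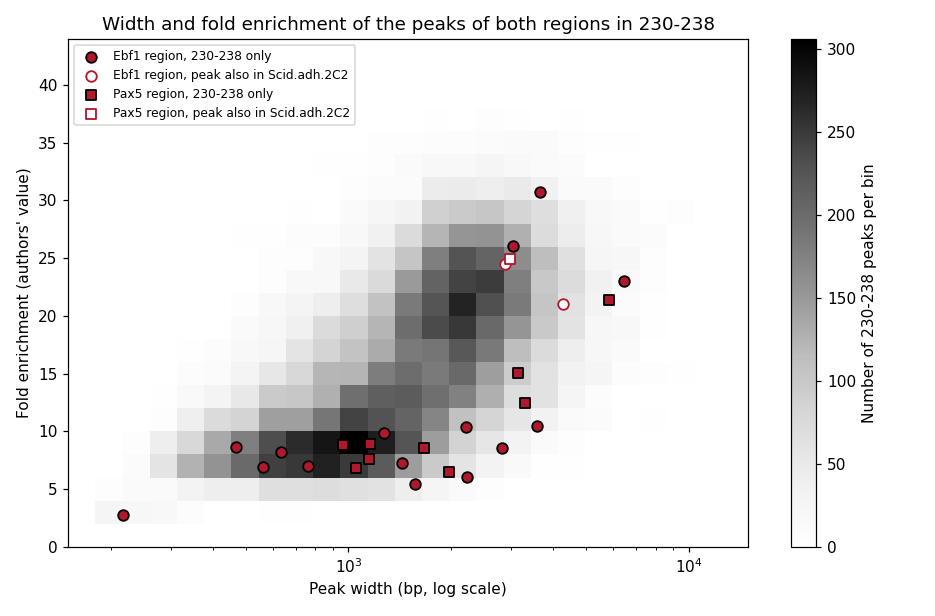
Width (x axis, bp, log scale) against the authors' fold enrichment (y axis) of the peaks of the Ebf1 region (circles) and the Pax5 region (squares) in 230-238, over all 19604 peaks of the list (grey, number per bin). Open symbols are the 3 peaks with a partner in Scid.adh.2C2, and the widest member peaks are those of 6457 bp at Ebf1 and 5848 bp at Pax5.

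The genes whose pattern in 230-238 was most alike were taken from the same set, by the distance in log2 highest fold, log2 widest peak and log2 covered length. Of the 1073 other genes, Pax5 was among the 5 nearest to Ebf1 and Ebf1 among the 5 nearest to Pax5, at a distance of 0.41. Aass, an enzyme gene of lysine breakdown, was at 0.39 from Pax5, with 10168 bp under peaks. Also among them were Zfp608, Hs3st1 and 2900026A02Rik for Ebf1, and Zc3h12d and Pde4b for Pax5.

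In Scid.adh.2C2 both genes lay within long stretches without a peak. The stretch around Ebf1 was 1330.3 kb long, with the nearest peaks 96.3 kb upstream of the gene and 843.3 kb downstream of it. Of the 15492 gaps between neighbouring peaks of this list, 2.72% were as long or longer. The stretch around Pax5 was 453.7 kb long, with the nearest peaks 45.0 kb upstream and 223.0 kb downstream, and 7.58% of the gaps were as long or longer. Both shares count gaps and not bases. A long gap holds more of the genome than a short one, so the shares do not say how rare such a location is. 230-238 had 14 peaks wholly inside the first stretch and 6 inside the second.

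CpG density is given as the ratio of observed to expected CpG, whose median over all 230-238 peaks was 0.43, with quartiles of 0.25 and 0.59. The peaks shared with Scid.adh.2C2 were above the upper quartile, with 0.63 at Zcchc7, 0.64 at Rnf145 and 0.67 at Ublcp1. At Pax5 the peaks around the second start (0.69) and upstream of the first (0.66) were of the same kind, while the widest peak between them had a ratio of 0.23. At Ebf1 the ratios were 0.47 in the upstream peak, 0.58 over the first start and 0.33 in the widest peak. The low peaks in introns ranged from 0.16 to 0.41.

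The relatives of the 2 genes were almost all without a mark. None of Ebf2, Ebf3 and Ebf4 had a promoter peak in either line, and of the other Pax genes (Pax1 to Pax4 and Pax6 to Pax9) Pax7, a factor of muscle progenitors, was the only one, with a peak of 592 bp and 8.47-fold enrichment in 230-238. Thus 10 of 11 family members were marked in neither line, as were 48.6% of all protein-coding genes.

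Around EBF1 and PAX5, 40 genes were listed by their role. Of these, 12 were marked in 230-238 only (30.0%, against 5.96% of all protein-coding genes) and 4 in Scid.adh.2C2 only (10.0%, against 3.28%). Another 21 were marked in both lines, against 42.2% of all protein-coding genes, and 3 in neither, against 48.6%. The list was drawn from genes known to differ between the lineages, so that these shares are a description.

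Of the 11 genes that act upstream of or together with the pair, 9 were marked in both lines, against 42.2% of all protein-coding genes. The highest promoter peak of Foxo1, a partner of EBF1, was 25.5-fold enriched in 230-238, above 88.5% of that list, and 28.9-fold in Scid.adh.2C2, above 77.0%. That of Ikzf1, the gene of the lymphoid factor IKAROS, was 33.1-fold enriched in 230-238 (above 99.2%) and 34.0-fold in Scid.adh.2C2 (above 90.8%). The promoter of Bcl11a, a factor required for early B cell development, had a 15.0-fold peak of 9498 bp in 230-238 and none in Scid.adh.2C2. Ets1 was the reverse, with a 23.4-fold promoter peak in Scid.adh.2C2 only, although 5 peaks of 230-238 lay elsewhere in this gene or within 2500 bp of it.

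The targets in the pre-B cell receptor and its signalling were marked in 230-238 in 9 of 9 cases, against 48.2% of all protein-coding genes, and 7 of them in this line only, against 5.96%. Cd79a and Cd79b, which code for the signalling chains of the receptor, had 27.9-fold and 29.0-fold peaks. Although the promoter of Cd79a had no peak in Scid.adh.2C2, 3 peaks of this line lay elsewhere in the gene or within 2500 bp of it. Blnk, an adaptor gene, and Blk, a kinase gene, had 20.9-fold and 14.9-fold peaks. Both surrogate light chain genes Vpreb2 (21.0-fold) and Igll1 (8.79-fold) were also marked in 230-238 only. Vpreb1, by contrast, was marked in both lines, at 21.2-fold in 230-238 and 29.9-fold in Scid.adh.2C2, as was Cd72, at 14.1-fold and 13.3-fold. These folds were above 73.1% and 80.4% of the respective list for Vpreb1, and above 44.7% and 32.7% for Cd72. Vpreb1 and Vpreb2 are near-identical copies, and the placing of reads between them was not tested. Vpreb2 had no peak in Scid.adh.2C2.

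All 7 transcription factors and cofactors downstream of the pair were marked in 230-238, against 48.2% of all protein-coding genes. Bach2 (26.3-fold), Irf8 (28.9-fold) and Spib (17.1-fold) were marked in this line only. In Scid.adh.2C2, 2 peaks lay elsewhere in Spib or within 2500 bp of it, and 0 in or near Bach2 and Irf8. The highest promoter peak of Irf4 was 25.2-fold enriched in 230-238, above 87.6% of that list, and 8.32-fold in Scid.adh.2C2, above 16.3%. Lef1, Pou2af1 and Ikzf3 had promoter peaks in both lines.

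Of the recombination genes, Rag1 (16.5-fold) and Rag2 (8.20-fold) were marked in Scid.adh.2C2 only. Dntt, the gene of terminal deoxynucleotidyl transferase, was marked in 230-238 only, with a 6.02-fold peak. This peak was among the lowest, above 3.38% of the 230-238 list.

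Of 10 opponents and repressed genes, 6 were marked in both lines, against 42.2% of all protein-coding genes. Gata3 was marked in Scid.adh.2C2 only, against 3.28%, and Zfp521, Cd28 and Csf1r in neither, against 48.6%. Gata3, the T cell factor that can divert cells from the B lineage, had a highest peak of 39.9-fold. Tcf7, another T cell factor, was marked in both, with 36.0-fold over 10029 bp in Scid.adh.2C2, above 94.1% of that list in fold enrichment, and 15.2-fold over 1332 bp in 230-238, above 49.4%. Id2 and Id3, whose products inhibit E proteins, and Notch1 were marked in both.

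The joined domains set Ebf1 and Pax5 beside these genes by width. With peaks joined across up to 1000 bp, none of the 33 listed genes with a promoter domain in 230-238 was as wide as Ebf1 and 1, Lef1 (13050 bp, rank 16), was wider than Pax5, and the median was 4674 bp. The Cd79a domain (12427 bp), the Irf8 domain (12309 bp) and the Ikzf1 domain (12287 bp) came next. Cd79a and Ikzf1 each had 1 promoter peak, of 5606 bp and 4934 bp. The rest of these 2 domains came from joining it with neighbouring peaks outside the promoter windows of the gene. Joined across 500 bp, 5 of the listed genes were wider than Ebf1 (9812 bp), and 1, again Lef1, was wider than Pax5. In Scid.adh.2C2, where Ebf1 and Pax5 had no domain, the T cell factors Bcl11b (12625 bp), Tcf7 (10029 bp) and Gata3 (9343 bp) ranked 5, 12 and 19 of 12974. Ikzf1, which was marked in both lines, ranked 8 there with 11587 bp. In 230-238 Tcf7 had a domain of 1332 bp (rank 11369), and Bcl11b and Gata3 had none.

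The marks at the defining genes of each line were set beside the labels, with lists chosen when earlier results of these data were known. Of 8 pro-B and pre-B markers, 8 were marked in 230-238 and 1, Vpreb1, in Scid.adh.2C2. Ebf1 and Pax5 are in this list and, as the genes described here, add nothing to the comparison. Of 8 pro-T markers 8 were marked in Scid.adh.2C2 and 2, Cd3d and Tcf7, in 230-238. Among all protein-coding genes 48.2% were marked in 230-238 and 45.5% in Scid.adh.2C2. None of the 6 myeloid and 3 NK cell markers was marked in either line, where 48.6% of all protein-coding genes were marked in neither. Of the 3 erythroid markers, Klf1 was marked in both lines and Epor in Scid.adh.2C2 only.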

How the data were processed

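H3K4me3 ChIP-seq of Scid.adh.2C2 and 230-238 was analysed from the peak lists, 1 per line. The authors trimmed reads (Trim Galore 0.6.7), mapped them to mm10 (GRCm38) with Bowtie2 2.4.4, called narrow peaks against input (MACS2 2.2.7.1, q-value threshold 0.05), and kept the optimal set at an irreproducible discovery rate (IDR) of 0.05 between the 2 replicates. The deposited score (from the IDR), fold enrichment ratio and −log10 p-value of each peak were used unchanged, and the −log10 q-value was not used. The libraries were of unknown depth.

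Genes and starts came from GENCODE vM21 on GRCm38, other starts and the first Pax5 window from RefSeq annotation of GRCm38. Overlaps needed 1 bp. No test was made, because each line has 1 combined list. The members, gene lists and naming rule (all genes with a promoter window under a member peak, the lists, and the 5 most alike genes) were chosen with earlier results of these data known. Bcl11b is a marker gene, and widths of domains at listed genes were added after values were seen. Some genes of the lists and of the most alike are not reported here by name. Scripts were tested on simulated data. Alternatives were fold of at least 10, a score of 1000, equal list lengths, other windows, region sizes, start definitions and joining gaps. Python 3.11.15, numpy 2.4.6, pandas 2.3.3 and matplotlib 3.10.9 were used. Input libraries entered only through peak calling.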

Additional observations from a re-analysis of the deposited data

How the results depend on the processing

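Over 13 alternatives, 79 of 88 recomputed values stayed within 1.5 times the reported one. A count can stay the same while its genes change. With peaks of at least 10-fold enrichment, 12 listed genes were again marked in 230-238 only. However, Dntt (6.02-fold) and Igll1 (8.79-fold) dropped out, and Irf4, whose Scid.adh.2C2 promoter peak was 8.32-fold enriched, was among those that came in. All 22 values of Scid.adh.2C2 on the starts and bodies of Ebf1 and Pax5 stayed at 0 and are among the 79. No alternative adds peaks to the list, and the nearest lie 96.3 kb from Ebf1 and 45.0 kb from Pax5. These 22 values could therefore not change, and they say nothing on robustness. With peaks of at least 10-fold enrichment the 230-238 peaks were 7 in the Ebf1 region and 4 in the Pax5 region, and the length covered in Ebf1 was 7811 bp. With 15513 peaks in each list, taken by p-value, they were 11 and 6. With 100 kb either side of the genes the Ebf1 region held 1 peak of Scid.adh.2C2, and with 500 kb the Pax5 region held 26 peaks of 230-238 and 14 of Scid.adh.2C2. With the starts of protein-coding transcripts only, Ebf1 had 1 start region, and 1 was marked in 230-238. Each of these alternatives keeps fewer or more peaks, bases or starts by its construction. The joining gaps of 500 bp and 2500 bp were chosen after seeing the data, and with 2500 bp the Ebf1 and Pax5 domains ranked 23 and 50 of 15036. No paired analysis was possible because each line has 1 combined list of its replicates, for which reason leaving out a replicate was not possible either. Depth is unknown, so that a missing peak may be a weak one.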
